A study of Mus musculus with 20 samples.

Results

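Methylation was examined in 38568 genomic windows that hold few measured CpG cytosines and are almost fully methylated. They were taken from 84524 fixed 1 kb windows of the mm9 mouse genome on chromosomes 1 to 19, of which they are 45.6%. A window was included when it held 3 to 9 cytosines with at least 10 reads in all 20 libraries, when its mean level over these libraries was at least 80%, and when it started more than 2000 bp from any dense low window. A dense low window has at least 20 cytosines and a level below 10%, and 12660 windows were of this kind. The level of a window is the percent of its reads, summed over its cytosines, that were methylated. The windows were thus selected on measured levels, so that their high methylation is given as a description and supports nothing. The word sparse refers to cytosines read by the assay, counted on each strand, not to all CpG sites of the sequence. The windows made up 63.0% of the 61193 windows with 3 to 9 cytosines and held 171832 cytosines, or 14.9% of those kept. Another 880 sparse windows reached 80% but lay within 2000 bp of a dense low window and were set aside.

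The cells were promyelocytes, the granulocyte precursors of the bone marrow, from mice of the FVB/n background. One genotype was wild type (WT), and the other was transgenic for PML-RARa, the fusion of the PML protein with the retinoic acid receptor alpha that is found in acute promyelocytic leukemia. From each genotype, early promyelocytes that carry the surface protein CD34 (CD34+) and late promyelocytes that lack it (CD34-) were profiled, with 5 libraries in each of the 4 groups. The labels name neither the promoter that drives the transgene nor the age of the mice, and leave unsaid if the libraries within a group represent different mice. Each title also carries the mark #1 or #2, both of which occur in every group, and its meaning is not stated. The p-values therefore measure the spread between these libraries, which may be in part technical. The fractions could not be checked against marker genes, since the files hold methylation only.

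As background, most CpG sites of mammalian DNA carry a methyl group that DNA methyltransferases copy to the new strand at each cell division, while dense CpG islands at promoters are mostly free of it. Sparse CpG sites between islands are methylated by default, and active enhancers among them often lose part of their methylation. Enhanced reduced representation bisulfite sequencing (ERRBS) reads the ends of restriction fragments cut at CpG-containing sites, after bisulfite has turned unmethylated cytosines into bases read as T. It therefore covers a window only where such a fragment falls, and the sequences and genes of the windows were not analysed here because no mm9 genome or annotation was used.

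The libraries differed in depth and scatter. Total coverage per library, summed over cytosines, lay between 83631324 and 362881291, and the median number of reads per cytosine in the windows lay between 52.4 and 146.7. Scatter was taken as the typical (median) distance of a library's windows from the median level that its 4 companion libraries had there. It was 4.45 percentage points in WT CD34+ replicate 1, 3.86 and 4.75 in PML-RARa CD34+ replicates 5 and 11, and 4.58 and 3.69 in PML-RARa CD34- replicates 6 and 12. In the other 15 libraries it lay between 1.83 and 3.44. These 5 libraries read 29.8%, 17.2%, 28.4%, 21.5% and 11.0% of the windows as 100% methylated, in the same order, against 0.122 to 9.79% in the others. When every cytosine was thinned to 10 reads, the 5 shares were 38.8%, 28.3%, 36.5%, 33.2% and 20.9% and the others lay between 9.88 and 20.5%, and PML-RARa CD34- replicate 6 stood high although its median of 133 reads per cytosine was among the highest. Counts of calls and mean levels are given with and without these 5 libraries. The libraries were run on 4 flowcells, lettered A to D. WT libraries of both fractions were on A, B and D, while only B held both fractions of PML-RARa.

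The levels of the windows were narrow and close to full methylation. They ran from 80.0006% to 99.4% with a median of 93.5%, and the middle 50% lay between 90.4% and 95.2%. The highest class, 95% and above, held 10662 windows, the class from 90 to 95% held 19019, the class from 85 to 90% held 5844 and the class from 80 to 85% held 3043. Levels were continuous across the threshold of 80%. Just inside it were chr6:128755001-128756000 and chr9:21678001-21679000, both at 80.0006%, and chr7:107298001-107299000 at 80.009%. Just outside it were chr2:166483001-166484000 at 79.9996%, chr11:117837001-117838000 at 79.997% and chr7:142749001-142750000 at 79.996%.

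**Figure D1:**
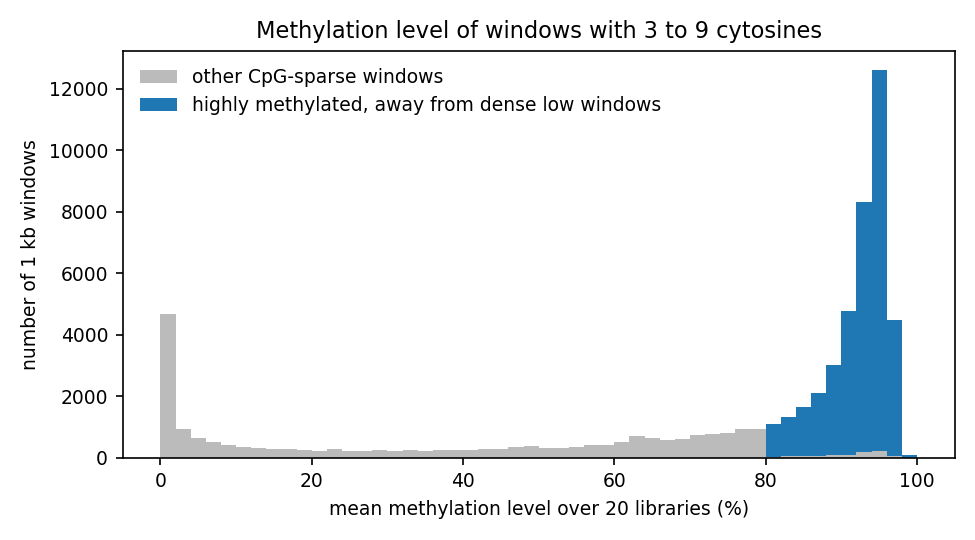
Number of 1 kb windows with 3 to 9 cytosines (vertical axis) by mean methylation level over the 20 libraries, in bins of 2 percentage points (horizontal axis, %). The windows examined here are in blue and all other windows with 3 to 9 cytosines in grey. The blue windows peak near their median of 93.5%, and a smaller grey group lies close to 0.

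Most of the windows were small islands of data. A window held 3 cytosines in 14179 cases and 4 in 10126, and only 1047 windows held 9. The measured cytosines of a window spanned a median of 161 bp, and in 44.1% of the windows at most 100 bp. All cytosines lay on 1 strand in 32.2% of the windows. Their share of all windows on a chromosome ran from 40.7% on chromosome 19 to 50.2% on chromosome 16. Most windows stood alone, since 86.7% had no other such window directly beside them. The longest unbroken runs were 5 windows. They were chr4:132294001-132299000 with 23 cytosines, chr4:146596001-146601000 with 21 and chr11:113254001-113259000 with 19. In the first run the mean level was 89.9% ± 1.73 in WT CD34+, 91.1% ± 0.761 in WT CD34-, 91.7% ± 2.60 in PML-RARa CD34+ and 91.7% ± 3.17 in PML-RARa CD34- cells. All ± values here and below are SDs over the 5 libraries of a group. In the second run the 20 libraries lay between 91.3% and 97.0%, and in the third between 91.0% and 98.8%.

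Sparse windows close to these windows were more often highly methylated than those farther away. A sparse neighbour at 80% or above is itself among the windows unless it lies within 2000 bp of a dense low window. The shares thus describe how the windows cluster, and the selection also keeps dense low windows away at short distances. Of the sparse windows that started 1 kb away, 77.8% of 7051 were at 80% or above, and 4.38% were below 20%. The share was 70.8% at 2 kb, 66.6% at 5 kb, 64.99% at 10 kb and 63.0% at 20 kb. Among the neighbours of all sparse windows away from dense low ones it was 62.3% at 1 kb and 61.3% at 20 kb. Starting from sparse windows at 50 to 80%, the share at 1 kb was 56.6%, and from those below 50% it was 22.9%. Pairs of these windows enter the count from both sides, and windows that touch can share reads, so the values are descriptions with no test.

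**Figure D2:**
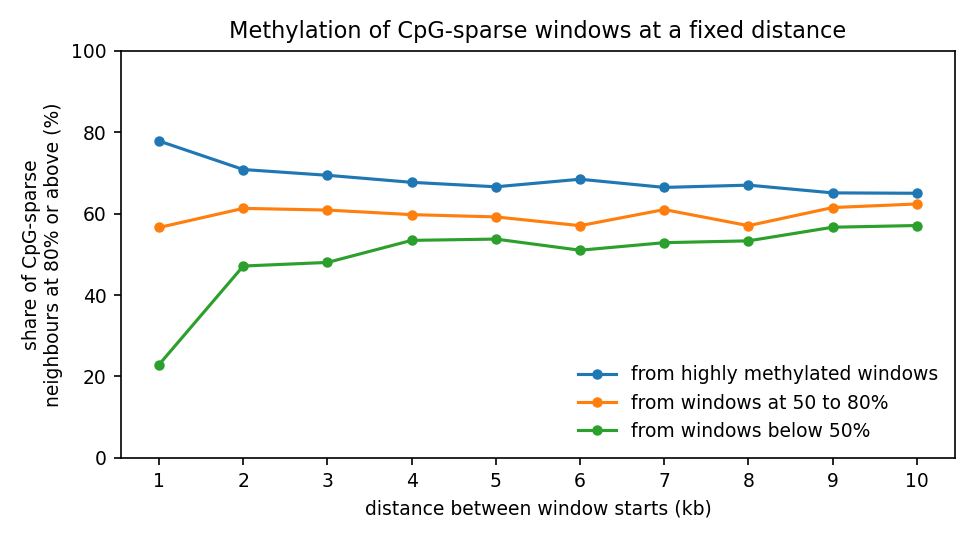
Share of sparse windows (3 to 9 cytosines) with a level of 80% or above (vertical axis, %) by their distance from a window of a given class (horizontal axis, kb between window starts). Lines start from the highly methylated windows (blue), from sparse windows at 50 to 80% (orange) and from sparse windows below 50% (green). The blue line falls from 77.8% at 1 kb to 64.99% at 10 kb, while the green line starts at 22.9%.

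The cytosines within a window were mostly alike. Of all cytosines in the windows, 40.1% had a mean level of at least 95%, 38.1% lay between 90 and 95%, 16.8% between 80 and 90% and 5.06% below 80%. Every cytosine was at 80% or above in 31744 windows, 82.3% of them. The median gap between the highest and the lowest cytosine of a window was 7.06 points. At 14503 CpG sites both strands were read, and the median difference between the strands was 1.71 points.

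A small set of cytosines departed from this. In 297 windows, 0.770% of the total, 299 cytosines had a mean level below 10%, and 235 of these were below 10% in each of the 20 libraries. In 50 cases the opposite strand of the same CpG was read as well, and its level lay between 78.4% and 99.0%, with a median of 95.9%. A window of at most 9 cytosines at a level of at least 80% has little room for a second such cytosine. A CpG low on both strands was thus nearly excluded by the selection, and the high opposite strand is a description only. The 3 widest gaps were at chr11:73494001-73495000, chr5:129720001-129721000 and chr4:142088001-142089000, where the lowest cytosine stood at 0.143%, 0.156% and 0% and the highest at 100%, 100% and 99.7%. In the first of these the low cytosine was at position 73494256 on the forward strand. Its neighbours at 73494251 and 73494258 on the same strand stood at 99.9% and 100%. A window just inside the level threshold, chr6:128755001-128756000, held a cytosine at 0% in all 4 groups (position 128755716, forward strand) and 6 others between 91.3% and 96.8%. Whether such positions differ in sequence between FVB/n mice and the reference strain was not tested.

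Libraries differed at these windows by more than independent counts would give. The median SD of a window over the 20 libraries was 4.31 points, while independent counts would give 1.30 points. The depth was a median of 426 reads per window and library, summed over cytosines. A read that covers several cytosines is counted at each of them, and reads carry no molecular identifiers. The counting SD is therefore a lower limit. By depth, the median SD was 4.34 points in the fifth of windows with the fewest reads and 4.23 in the fifth with the most, while the counting SD fell from 1.75 to 0.987. In the 41 windows with at least 500 reads per cytosine the median SD was 1.33 points and the counting SD 0.486. The SD was lower in windows with more cytosines, 5.14 points with 3, 3.05 with 8 and 3.14 with 9, and lower towards full methylation, 7.07 points in the class from 80 to 85% and 3.03 in the class of 95% and above. In the model used for all tests below, the median overdispersion was 10.6 in these windows and 9.49 over all windows, where 1 would mean the spread of independent counts.

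The 3 most deeply read windows were close to constant. At chr4:88022001-88023000, 4072 reads per cytosine and library gave levels from 91.2 to 94.2% in the 20 libraries. At chr12:109522001-109523000, with 3935 reads, the levels ran from 82.00 to 85.9%, and at chr19:28230001-28231000, with 3532 reads, from 88.8 to 92.8%. In each of the 3 windows the cytosines spanned 48 bp, and the 4 groups overlapped. Such depth is far from typical, since the median over the windows was 106 reads per cytosine and library. The reason for it was not tested.

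Maturation of WT cells went with a small loss over the windows as a whole. The mean level was 93.1%, 92.7%, 92.8%, 92.6% and 93.1% in the WT CD34+ libraries (replicates 1, 7, 9, 15 and 17) and 92.2%, 91.8%, 91.8%, 91.6% and 92.1% in the WT CD34- libraries (replicates 2, 8, 10, 16 and 18). The groups did not overlap. Their means were 92.9% ± 0.244 and 91.9% ± 0.249, which differ by -0.953 points. Within flowcells the difference was -1.27 on flowcell A, -0.917 on B and -0.649 on D. Flowcells A and D each held 2 libraries of either WT fraction, and B held only 1 of each. It was -0.887 without WT CD34+ replicate 1, the WT library of high scatter. Over all 84524 windows the mean difference was -0.882 points, close to that of the highly methylated ones, and in sparse windows at 50 to 80% it was -2.01 points. The median difference was -0.916 points with 65.5% of the windows lower in CD34- cells, against -0.161 points and 59.7% over all windows and -1.39 points and 63.7% in sparse windows at 50 to 80%. By class of level the median ran from -1.42 points (80 to 85%) to -0.640 (95% and above), and by chromosome from -1.08 on chromosome 14 to -0.789 on chromosome 3. In windows with 10 to 19 cytosines at 80% or above the median was -0.703 points. The mean levels of the WT fractions did not overlap there either (lowest CD34+ library 91.93%, highest CD34- library 91.74%), nor over all windows (57.27% and 57.03%). No test is given for these levels, because the windows were chosen with results of these data known. In a bulk population, fewer methylated cells and partial loss in every cell cannot be told apart.

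**Figure D3:**
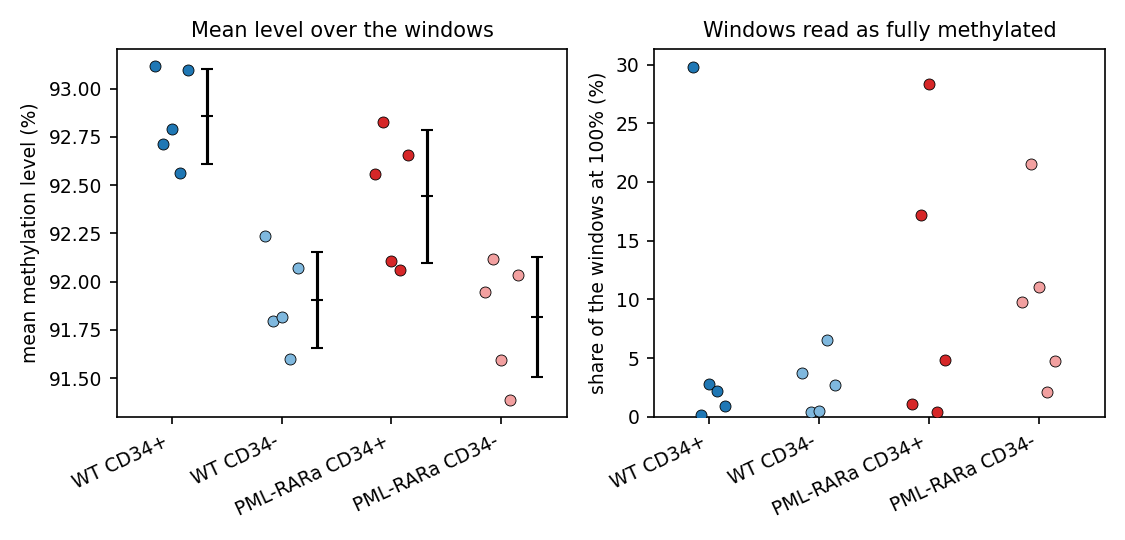
Left, mean methylation level over the 38568 windows (vertical axis, %; the axis does not start at 0) in each library, as points, by group, with bars for the mean ± SD of 5 libraries. Right, share of the windows read as 100% methylated in each library. The WT CD34+ libraries all lie above the WT CD34- libraries on the left, and WT CD34+ replicate 1 and PML-RARa CD34+ replicate 11 lie highest on the right, at 29.8% and 28.4%.

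Few single windows were called between the WT fractions. With a quasi-binomial model fitted to all windows, where a call required at least 10 points of difference besides an adjusted p below 0.05, 18 of the 38568 windows were lower in CD34- cells and 6 were higher. That is 0.0467% and 0.0156% of them, below the 0.394% called lower and the 0.0556% called higher over all windows. Both directions together were 0.0622% here, 0.0362% in windows with 10 to 19 cytosines at 80% or above and 1.45% in sparse windows at 50 to 80%. The selection itself limits such calls. A mean of at least 80% leaves little room for a gain and removes many windows with a large loss. Called or not, differences of 10 points or more were found in 0.884% of the windows. The share was 2.59% over all windows and 10.4% in sparse windows at 50 to 80%. The low shares called are thus no result about these windows. Since windows were selected on the mean over all 20 libraries, a group can lie below 80% in some of them. That held for 2204 of the 38568 windows (5.71%), for 13 of the 18 losses and for 4 of the 6 gains, which met the level threshold only through their higher groups. An unadjusted p below 0.05 was found in 2128 windows, 5.52% against 6.18% over all windows. The 5 libraries of each fraction did not overlap in 569 windows that were lower and 59 that were higher in CD34- cells, 1.48% and 0.153% of them, against 1.74% and 0.377% over all windows. The count of 24 fell to 10, 11 and 14 without WT CD34+ replicate 9, 7 or 17 and to 12 and 13 without WT CD34- replicate 16 or 18, and it was 27 without the 5 libraries of high scatter, with 15 of the 24 windows called in both. Of the 24 windows, 8 kept their call whichever single library was left out. Limma called 3 windows (0.00778% against 0.121% over all windows) and gave 1316 an unadjusted p below 0.05 (3.41% against 4.15%). Its only call outside the 24 was chr8:126829001-126830000 (-13.5 points, adjusted p = 0.0355), named here after its values were seen.

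The largest loss was at chr3:143682001-143683000, which held 3 cytosines within 45 bp. Its level was 94.2%, 97.9%, 96.1%, 89.9% and 96.6% in WT CD34+ cells and 81.2%, 64.6%, 75.7%, 52.6% and 67.2% in WT CD34- cells. All CD34- libraries lay below all CD34+ libraries, with means of 94.95% ± 3.11 and 68.3% ± 10.96 and a difference of -26.7 points (adjusted p = 0.00534). In PML-RARa cells the same window stood at 85.6%, 72.2%, 100%, 88.6% and 89.9% in CD34+ and 87.3%, 91.5%, 81.1%, 74.6% and 78.7% in CD34- cells, and these groups overlapped. At chr17:64957001-64958000 the WT CD34+ libraries read 92.1%, 85.6%, 92.1%, 85.8% and 89.1% and the CD34- libraries 65.5%, 72.8%, 70.4%, 58.4% and 77.1%, which do not overlap (adjusted p = 0.00525). The difference of -20.1 points over its 5 cytosines was uneven. The cytosine at position 64957761 fell from 71.1% ± 9.67 to 21.3% ± 6.96, while the cytosine at 64957610 stood at 99.0% and 98.8%.

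At chr7:132715001-132716000, with 8 cytosines in 85 bp, the WT CD34+ libraries stood at 88.8%, 92.2%, 94.5%, 90.1% and 89.9% and the CD34- libraries at 80.7%, 68.6%, 78.5%, 65.4% and 73.6%. The difference was -17.7 points (adjusted p = 6.89e-04), and this window and chr18:36651001-36652000 were the 2 of the 24 that limma also called (adjusted p = 0.0481 and 0.00900). In PML-RARa cells it was -11.3 points, from 85.5% ± 5.82 to 74.2% ± 5.85 (adjusted p = 0.109). At chr2:101416001-101417000 the levels were 92.6%, 90.6%, 97.8%, 91.3% and 90.7% in WT CD34+ and 90.6%, 72.03%, 79.8%, 67.6% and 68.6% in WT CD34- cells, so that the highest CD34- library all but reached the lowest CD34+ library. The difference was -16.9 points in WT (adjusted p = 0.0219) and -17.96 in PML-RARa cells (adjusted p = 0.0705). At its cytosine 101416540 the level was 70.3% ± 19.6 and 12.6% ± 9.38 in WT CD34+ and CD34- cells, and 58.01% ± 26.8 and 11.9% ± 9.64 in the PML-RARa fractions.

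The other 6 of the 10 largest losses, from WT CD34+ to CD34- cells, were chr11:68839001-68840000 (92.98% ± 4.43 to 72.1% ± 6.35), chr10:120521001-120522000 (92.6% ± 4.49 to 75.01% ± 9.62), chr9:122463001-122464000 (91.9% ± 1.74 to 74.7% ± 2.58), chr9:96856001-96857000 (88.8% ± 2.08 to 72.1% ± 6.14), chr4:47915001-47916000 (94.5% ± 3.27 to 78.6% ± 6.35) and chr9:61261001-61262000 (92.9% ± 4.46 to 78.9% ± 8.71). Their differences lay between -20.9 and -14.01 points, and in each of them the WT fractions did not overlap. The call at chr9:122463001-122464000 was lost whichever WT library was left out, with an adjusted p between 0.0661 and 0.110. The 8 smaller losses called lay between -13.9 and -10.1 points, and of all 18 only chr5:33838001-33839000 had overlapping WT libraries.

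The largest gain was at chr1:64647001-64648000, with 3 cytosines in 198 bp. The WT CD34+ libraries read 54.9%, 54.9%, 41.4%, 60.8% and 58.3% there and the CD34- libraries 97.6%, 93.9%, 94.1%, 100% and 100%. The difference was 43.1 points (adjusted p = 1.72e-04), and with it the window only just met the level threshold, at a mean of 80.04%. All 3 cytosines rose, the one at 64647488 from 41.6% ± 11.7 to 96.3% ± 5.95. In PML-RARa cells the libraries stood at 70.4%, 70.5%, 99.7%, 73.2% and 74.2% in CD34+ and 90.6%, 100%, 90.6%, 97.6% and 78.1% in CD34- cells. The fractions overlapped there, and the CD34+ library at 99.7% was replicate 11, one of those of high scatter.

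At chr18:36651001-36652000, with 6 cytosines in 69 bp, the WT CD34+ libraries stood at 58.6%, 62.3%, 59.2%, 80.5% and 67.5% and the CD34- libraries at 91.9%, 94.96%, 91.3%, 91.6% and 96.4%. The difference was 27.6 points (adjusted p = 1.28e-04), and its adjusted p ranged from 1.25e-05 to 0.0272 over the alternative settings. In PML-RARa cells the levels were 77.8%, 79.2%, 90.1%, 79.03% and 78.4% in CD34+ and 97.9%, 95.2%, 89.7%, 93.3% and 92.6% in CD34- cells, which differ by 12.8 points (adjusted p = 0.0144). It was the only window called in both genotypes. The PML-RARa call was lost with flowcell as a factor (12.8 points, adjusted p = 0.45) and when the 5 high-scatter libraries were left out, although the difference was then larger (16.2 points, adjusted p = 0.0959). The CD34- groups of both genotypes lay close together, at 93.2% ± 2.29 and 93.7% ± 3.07, and the CD34+ groups at 65.6% ± 9.001 and 80.9% ± 5.14. The other 4 gains were chr4:45233001-45234000 (73.2% ± 4.51 to 87.2% ± 0.949), chr5:125906001-125907000 (81.1% ± 5.47 to 94.97% ± 3.48), chr17:50290001-50291000 (82.7% ± 6.91 to 94.8% ± 3.44) and chr4:43460001-43461000 (71.03% ± 6.22 to 82.2% ± 1.21). At the window on chromosome 17 the WT fractions overlapped, and after thinning every cytosine to 10 reads its difference was 1.67 points in place of 12.1.

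**Figure D4:**
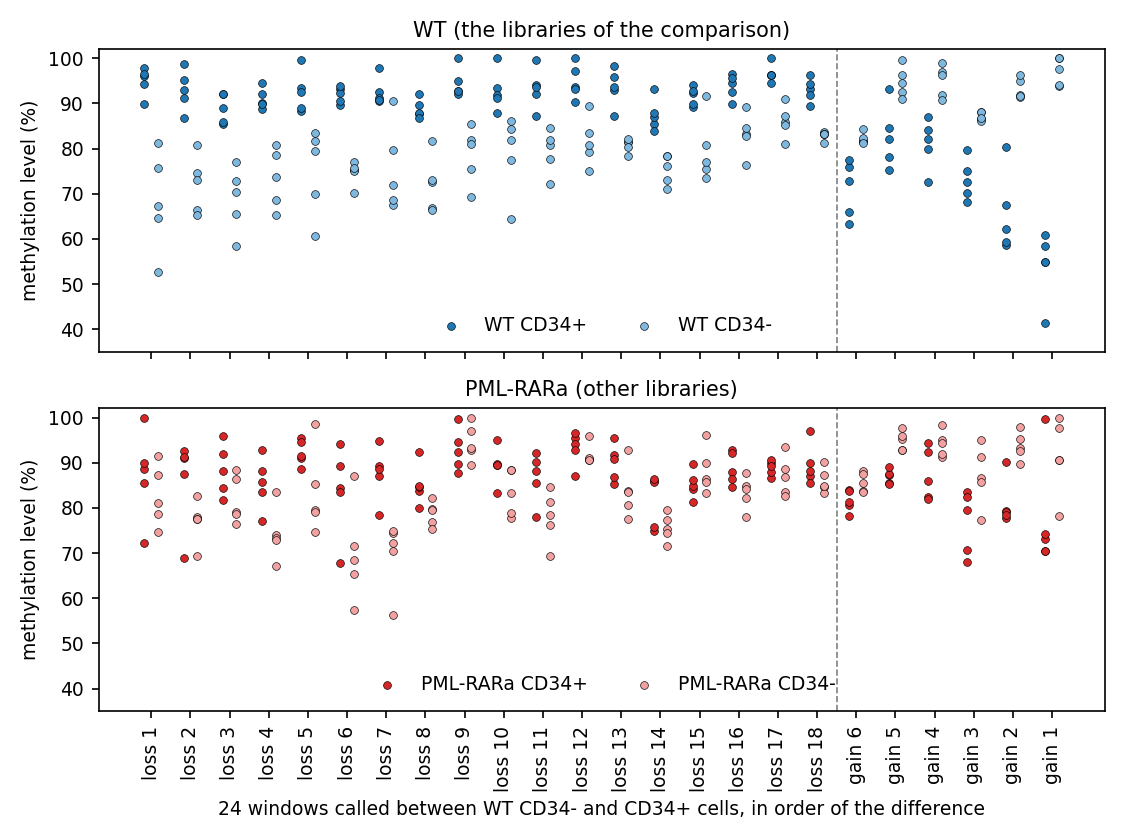
Methylation level (vertical axis, %; the axis does not start at 0) in each library at the 24 windows called between the WT fractions, ordered by difference (horizontal axis; 18 losses, then 6 gains after the dashed line). The upper panel shows the WT libraries and the lower panel the PML-RARa libraries, with CD34+ in the darker and CD34- in the lighter colour. The WT fractions are apart in 22 of the 24 windows, and the PML-RARa fractions in 2.

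The difference between the PML-RARa fractions is given beside these WT calls as a description. Of the 18 losses, 16 had the same sign in PML-RARa cells, with a median difference of -6.23 points, and 8 of the 18 had an unadjusted p below 0.05 there. Of the 6 gains, all had the same sign with a median of 9.13 points, each with an unadjusted p below 0.05. Among all 38568 windows, 57.6% were lower in PML-RARa CD34- cells and 10.1% had such a p, against 55.3% and 9.59% over all windows of the genome. The windows were selected for a large WT difference, so the smaller size in the other genotype is not a comparison of the genotypes. The difference between them was tested by the interaction term, on the log-odds scale of the model, which called 0 of the windows.

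The cytosines of the called windows changed to unequal degrees. In 10 of the 18 losses and 4 of the 6 gains every cytosine differed in the direction of the window. In the 18 WT losses, 87 of 98 cytosines were lower in CD34- cells, 28 of them by 20 points or more. The cytosine with the largest loss in each window differed by between -75.9 and -17.2 points, with a median of -32.6, and as the largest of each window it is high by choice. At these same positions the PML-RARa difference had the same sign in 15 of 18 windows and a median of -14.7 points, while the median over the windows' remaining cytosines was -2.74. In 9 of 18 windows it was also the largest loss of the window in PML-RARa cells. In the 6 gains, 30 of 34 cytosines were higher and 13 of them by 20 points or more. Their most changed cytosines had a PML-RARa difference of 14.3 points in the median, against 4.95 over the remaining cytosines, and 3 of 6 were again the largest. With so few cytosines in a window, some of these matches would arise by chance, and the share to expect was not computed.

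**Figure D5:**
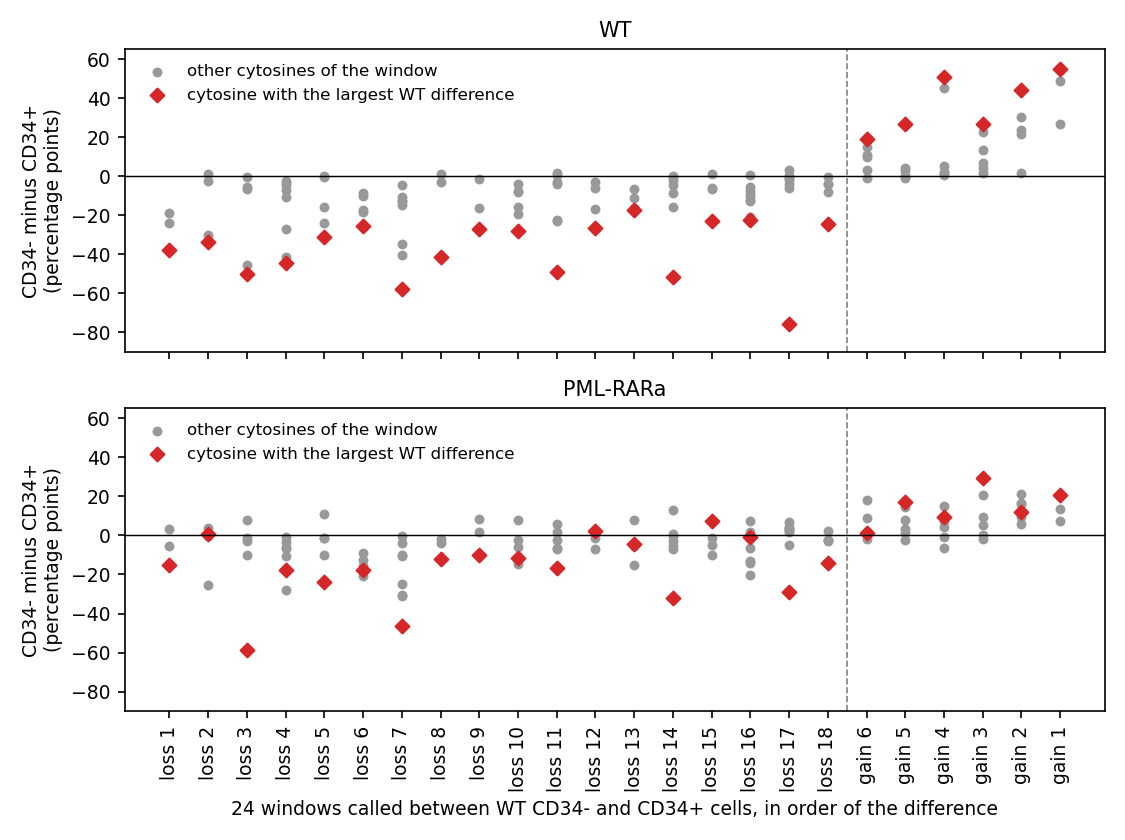
Difference in methylation between CD34- and CD34+ cells (vertical axis, percentage points between group means of 5 libraries) at each cytosine of the 24 windows called in WT cells (horizontal axis, 18 losses, then 6 gains after the dashed line). The upper panel shows WT and the lower panel PML-RARa cells. Red diamonds mark, in both panels, the cytosine with the largest WT difference of the window, and grey points the other cytosines. The red diamonds reach -75.9 points in WT cells and -58.9 points in PML-RARa cells.

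Some of the losses bordered a window that was itself lower in WT CD34- cells. Beside chr10:95096001-95097000 (96.7% ± 2.03 to 86.1% ± 3.55), the next window, with a mean level of 31.4%, differed by -49.6 points. Within the first window the change sat at its far end, where the cytosine at 95096995 fell from 87.5% ± 7.73 to 11.7% ± 9.10, while the other 7 had means between 92.5% and 99.4% in both fractions. At chr10:59792001-59793000 the cytosine at 59792006, 5 bp inside the window, fell from 55.5% ± 6.53 to 3.91% ± 3.22, and the window before it, at 11.1%, differed by -27.1 points. At chr10:120521001-120522000 the cytosine at 120521020 fell from 84.1% ± 13.2 to 52.8% ± 11.5 beside a window at 73.4% that differed by -25.5 points. Beside chr17:35071001-35072000 (93.8% ± 2.62 to 83.2% ± 4.60), a window at 10.6% differed by -30.4 points. All 4 neighbours were called (adjusted p between 1.28e-04 and 0.0214), and touching windows can share reads. Of the 10 other windows measured within 2 kb of the 24, 8 were highly methylated sparse windows too, and none of the 10 was called.

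The highly methylated windows were also slightly lower on average in the late PML-RARa promyelocytes. The mean level was 92.6%, 92.8%, 92.1%, 92.1% and 92.7% in the CD34+ libraries (replicates 3, 5, 11, 13 and 19) and 91.9%, 92.1%, 91.6%, 91.4% and 92.0% in the CD34- libraries (replicates 4, 6, 12, 14 and 20). The lowest CD34+ libraries reached into the range of the CD34- libraries. The difference of the means was -0.626 points, -0.728 on flowcell B, which alone held both fractions, and -0.636 without the 4 PML-RARa libraries of high scatter and the WT one. The mean difference was -0.561 points over all windows and -1.20 in sparse windows at 50 to 80%. The median difference was -0.568 points, with 57.6% lower, against -0.0571 points and 55.3% over all windows and -0.933 points and 57.6% in sparse windows at 50 to 80%. By distance to the nearest dense low window, the median was between -0.733 and -0.642 points in the 5 classes up to 100 kb, -0.354 in the 12106 windows from 100 kb to 1000 kb and -0.0424 in the 805 windows beyond 1000 kb. In WT cells the last 2 classes had medians of -0.933 and -0.888 points, and the others lay between -0.958 and -0.870. Reads per cytosine had medians of 104 and 96.7 in the last 2 classes and 107 to 110 in the others, and their part in the pattern was not tested.

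In PML-RARa cells 3 windows were called lower and 3 higher in CD34- cells. Each is 0.00778% of the windows, against 0.0615% and 0.0106% over all windows. The level threshold limits calls here as in WT cells. An unadjusted p below 0.05 was found in 3889 windows, 10.1% against 9.59% over all windows. With only the PML-RARa groups in the model this count was 2747. With only the WT groups in it the WT count was 3344, in place of 2128. Which genotype had more such windows thus depended on the groups that shared the overdispersion. The fractions did not overlap in 254 windows that were lower and 93 that were higher, 0.659% and 0.241% against 0.765% and 0.284% over all windows. At chr16:34669001-34670000 the CD34+ libraries read 94.00%, 96.2%, 97.97%, 94.6% and 97.04% and the CD34- libraries 83.7%, 80.1%, 80.6%, 87.2% and 90.1%, which do not overlap. The difference was -11.6 points (adjusted p = 0.0108), and in WT cells it was -3.41 points (adjusted p = 0.745). At chr11:3464001-3465000 the libraries stood at 95.9%, 100%, 100%, 96.5% and 100% in CD34+ and 80.7%, 80.8%, 88.4%, 92.4% and 85.6% in CD34- cells (adjusted p = 0.0471), while the WT groups were at 95.95% ± 2.14 and 95.1% ± 3.52. At chr7:74967001-74968000 the PML-RARa means were 98.3% ± 1.83 and 86.2% ± 6.62, and 1 CD34- library, at 95.8%, overlapped the CD34+ group.

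Of the gains, chr4:118198001-118199000 was read as 100% methylated in all 5 PML-RARa CD34- libraries, while the CD34+ libraries stood at 98.98%, 92.3%, 87.4%, 87.4% and 82.7% (adjusted p = 0.0208). The WT libraries lay at 95.04% ± 2.94 in CD34+ and 95.8% ± 3.71 in CD34- cells. At chr8:14832001-14833000 the levels were 83.6%, 72.00%, 87.8%, 81.8% and 75.2% in CD34+ and 89.8%, 90.4%, 88.98%, 91.7% and 90.9% in CD34- cells, which differ by 10.3 points (adjusted p = 0.0208), and WT cells differed by 5.71 points (adjusted p = 0.657). The third gain was the chromosome 18 window given above. None of the 6 calls was kept with flowcell as a factor, with only the PML-RARa groups in the model, after thinning to 10 reads per cytosine or without the 5 libraries of high scatter. In the last case 1 other window was called, chr4:41026001-41027000 (-18.04 points, adjusted p = 0.0409), named here after its values were seen. Limma called only the chromosome 4 gain (adjusted p = 0.0259), 0.00259% of the windows against 0.0154% over all windows, with 3064 windows at an unadjusted p below 0.05 (7.94% against 7.54%). The count was 0 without PML-RARa CD34+ replicate 19, 3 without PML-RARa CD34+ replicate 3 or 5 or PML-RARa CD34- replicate 20, and 10 without PML-RARa CD34- replicate 4 or WT CD34+ replicate 15. PML-RARa CD34+ replicate 19 was alone on flowcell C. Flowcell as a factor therefore gives this library a term of its own, so that setting also removes its weight.

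The genotypes were compared within each fraction. In CD34+ cells the mean level over the windows was 92.9% ± 0.244 in WT and 92.4% ± 0.342 in PML-RARa libraries, a difference of -0.415 points with overlapping groups. It was -0.217 points on flowcell B (3 PML-RARa libraries and 1 WT library) and -0.617 on D (1 PML-RARa library and 2 WT libraries). Without the 5 libraries of high scatter it was -0.367. Over all windows the mean difference was -0.417 points, much the same. The median over the windows was -0.285 points, against -0.0434 over all windows. The quasi-binomial model called 0 of the windows, as over all windows (0%), with 1589 at an unadjusted p below 0.05, or 4.12% against 4.39% over all windows. Limma called 0 as well, also over all windows (0%), with 1898 at an unadjusted p below 0.05 (4.92% against 4.5%). Without the 5 high-scatter libraries the model again called 0. The genotypes did not overlap in 180 windows that were lower and 100 that were higher in PML-RARa cells, 0.467% and 0.259% against 0.531% and 0.228% over all windows.

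Among the windows with the smallest p in CD34+ cells, values are given for 3 that were lower and 3 that were higher in PML-RARa cells. At chr4:125023001-125024000 the WT libraries read 99.8%, 91.3%, 96.8%, 97.5% and 97.00% and the PML-RARa libraries 90.5%, 76.3%, 76.6%, 86.2% and 93.04%, which overlap (adjusted p = 0.633). At chr14:25743001-25744000 they read 100%, 95.4%, 98.6%, 95.5% and 97.3% and 90.5%, 83.3%, 84.3%, 92.8% and 85.98%, with no overlap and a difference of -9.997 points (adjusted p = 0.633). At chr10:95096001-95097000 the means were 96.7% ± 2.03 and 88.8% ± 1.62 (adjusted p = 0.533). Of windows higher in PML-RARa cells, chr9:61481001-61482000 stood at 66.97%, 89.4%, 74.8%, 82.4% and 90.3% in WT and 92.5%, 93.4%, 100%, 93.8% and 93.8% in PML-RARa libraries (adjusted p = 0.587). The window chr5:35985001-35986000 had means of 86.7% ± 3.33 and 96.6% ± 3.26, and chr4:43460001-43461000, one of the gains with maturation, of 71.03% ± 6.22 and 81.6% ± 2.38. None of these passed the adjustment.

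In CD34- cells the mean levels were 91.9% ± 0.249 in WT and 91.8% ± 0.313 in PML-RARa libraries, a difference of -0.0884 points. Within flowcells it was 0.0117 on A (3 PML-RARa and 2 WT libraries) and -0.0284 on B (2 PML-RARa libraries and 1 WT library). The mean difference over all windows was -0.0960 points. The median of the differences of single windows was 0.0360 points, against -0.0158 over all windows, so the direction depended on the summary. The model called 0 of the windows, as over all windows (0%), with 3451 at an unadjusted p below 0.05, or 8.95% against 8.03% over all windows. Limma called 1, or 0.00259% against 0.00118% over all windows, with 1911 at an unadjusted p below 0.05 (4.95% against 4.48%). Without the 5 high-scatter libraries the model called 0, and the difference of the mean levels was -0.116 points. The genotypes did not overlap in 124 windows that were lower and 241 that were higher in PML-RARa cells, 0.322% and 0.625% against 0.495% and 0.414% over all windows. PML-RARa CD34- libraries 4, 6 and 12 read 9.79%, 21.5% and 11.0% of the windows as 100% methylated, against at most 6.57% in any WT CD34- library. The part of this difference in the counts was not tested.

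The window that limma called, chr4:43436001-43437000, was read as 100% methylated in all 5 PML-RARa CD34- libraries and at 89.8%, 90.9%, 89.4%, 67.7% and 93.02% in the WT libraries. The difference was 13.8 points (adjusted p = 0.00537 by limma and 0.212 by the quasi-binomial model). Without the library at 67.7%, WT CD34- replicate 16, the difference was 9.22 points. At chr18:54438001-54439000 the WT libraries stood at 81.7%, 77.3%, 78.6%, 71.3% and 80.3% and the PML-RARa libraries at 94.5%, 97.3%, 100%, 98.6% and 90.2%, which do not overlap (adjusted p = 0.211). At chr16:84546001-84547000 they stood at 92.1%, 92.5%, 92.6%, 95.1% and 91.2% and 97.3%, 97.8%, 97.1%, 97.9% and 98.9% (adjusted p = 0.211). The lowest p-values among windows lower in PML-RARa cells were at chr2:33831001-33832000 (90.7% ± 3.36 in WT and 75.6% ± 3.997 in PML-RARa), chr11:52308001-52309000 (90.9% ± 4.47 and 76.1% ± 5.86) and chr17:47289001-47290000 (90.1% ± 3.39 and 76.8% ± 5.47). In the first of these the genotypes did not overlap, with PML-RARa libraries at 73.00%, 70.8%, 78.8%, 80.5% and 74.9%. These 3 windows had adjusted p-values of 0.211, 0.211 and 0.251.

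The interaction asks whether the change with maturation differs between the genotypes. It was tested on the log-odds scale of the logistic model, while its size is given in percentage points. These scales can diverge near full methylation, so the p does not test the size in points. It called 0 of the windows, as over all windows (0%), with 2284 at an unadjusted p below 0.05, or 5.92% against 5.19% over all windows. Limma called 0 as well, also over all windows (0%), and gave 1727 windows such an unadjusted p (4.48% against 3.9%). The model called 0 also without the 5 high-scatter libraries. With flowcell as a factor 2 windows were called, chr5:142430001-142431000 (-10.5 points, adjusted p = 0.0147) and chr9:4896001-4897000 (-12.1 points, adjusted p = 0.0332), named here after their values were seen. Among windows with the smallest p, chr18:54438001-54439000 differed between the WT fractions by -13.6 points and was 7.62 points higher in PML-RARa CD34- than CD34+ cells, an interaction of 21.3 points (adjusted p = 0.809). At chr14:25743001-25744000 the WT difference was -4.92 and the PML-RARa difference 10.6 points (adjusted p of the interaction = 0.809). In the opposite direction, chr3:51498001-51499000 had a WT difference of 4.69 and a PML-RARa difference of -13.4 points, and chr4:147618001-147619000 of 5.55 and -11.2 points (adjusted p = 0.908 and 0.908).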

How the data were processed

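Methylation was measured by ERRBS in 20 libraries, 5 in each of 4 groups. Per the file headers, the deposited tables list for each cytosine its position, strand, coverage as a read count and the percent of reads with C (methylated) and with T. CASAVA 1.8.2, Bismark and the mm9 build are named in the submitters' processing notes, with no further step given. The lowest listed coverage was 10 reads in each of the 20 libraries.

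Methylated reads were taken as the deposited percent C times the coverage count, rounded to whole reads. Only the 1150978 cytosines listed with at least 10 reads in all 20 libraries on chromosomes 1 to 19 were used, in fixed 1 kb windows. The windows and lists described here were chosen with earlier results of these data known. Methylated and unmethylated reads of all 20 libraries were fitted per window by logistic regression of the quasi-binomial kind, with the 4 groups as terms. Its overdispersion, Pearson's chi-square divided by the 16 residual degrees of freedom, was moderated over windows as in limma's squeezeVar and was not allowed below 1. Two-sided F tests were adjusted by Benjamini-Hochberg over all 84524 windows, and a window was called if its groups differed by 10 percentage points or more with an adjusted p below 0.05. The 5 comparisons were the genotypes within each fraction, the fractions within each genotype, and their interaction. Levels and differences are unweighted means over libraries.

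Windows were named by rule: the 10 largest losses and gains called per comparison (all, where fewer), the 3 smallest p-values per direction where none was called, the 3 windows nearest to either side of the 80% threshold, the 3 most deeply read, the 3 longest runs and the 3 with the widest gap between cytosines. Alternatives were limma on log2 ratios of methylated to unmethylated reads with 0.5 added to each, flowcell as a factor, only the compared groups, a coverage minimum of 20, reads thinned to 10 per cytosine, an adjusted p alone, a level of at least 90%, a distance of more than 5000 bp, and leaving out each library or the 5 of high scatter. A fit with pairs of consecutive title numbers as a block was added after seeing the data. Python 3.11.15, NumPy 2.4.6, SciPy 1.17.1, pandas 2.3.3, R 4.3.3 and limma 3.58.1 were used.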

Additional observations from a re-analysis of the deposited data

Results flagged for a closer look

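The libraries below lay at one end of their group of 5, and the distance to the next library took up more than 0.71 of the group's range (Dixon's 95% critical value). Among 188 groups of values this held for 16. About 1 in 20 groups, here 9.4, would do so by chance.

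WT CD34+ replicate 1 stood apart in 5 measures over the highly methylated sparse windows. Its median level was 96.0%, while its 4 companions had 93.8 to 94.2%. The SD of its levels over windows was 8.64 points, against 4.35 to 5.55. It read 29.8% of the windows as 100% methylated, against 0.122 to 2.78%, and 8.27% of them as below 80%, against 1.61 to 3.33%. Its scatter was 4.45 points, against 1.83 to 2.37.

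Of single windows, 4 values belonged to WT CD34- replicate 16, each the lowest of its group. It stood at 67.7% at chr4:43436001-43437000 (others 89.4 to 93.0%), 70.3% at chr9:122463001-122464000 (75.1 to 77.04%), 81.2% at chr17:56426001-56427000 (83.2 to 83.7%) and 89.2% at chr4:118198001-118199000 (96.7 to 98.2%). PML-RARa CD34+ replicate 11 was the highest of its group at 3 windows. It stood at 100% at chr9:61481001-61482000 (92.5 to 93.8%), 99.7% at chr1:64647001-64648000 (70.4 to 74.2%) and 90.1% at chr18:36651001-36652000 (77.8 to 79.2%). At chr2:101416001-101417000, WT CD34+ replicate 9 stood at 97.8% (90.6 to 92.6%) and PML-RARa CD34- replicate 6 at 56.3% (70.5 to 74.9%). At chr11:68839001-68840000, PML-RARa CD34+ replicate 13 stood at 68.9% (87.4 to 92.5%), and at chr14:79046001-79047000, PML-RARa CD34- replicate 12 stood at 95.9% (90.6 to 91.1%).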

How the results depend on the processing

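The 24 windows called between the WT fractions became 10 with a coverage minimum of 20, 3 with limma, 9 after thinning to 10 reads per cytosine and 2 among windows at 90% or above, and 10 to 31 when 1 library was left out. They were 19 with flowcell as a factor, 26 with only the WT groups and 35 by adjusted p alone. The 6 called between the PML-RARa fractions became 1 with a coverage minimum of 20, with limma and without the 5 libraries of high scatter, 0 with flowcell as a factor, with only the PML-RARa groups and after thinning, and 0 to 10 when 1 library was left out. Limma called 1 window between the genotypes in CD34- cells, and the interaction with flowcell called 2, where the model called 0. The higher minima of level and coverage leave fewer windows: at a coverage of 20, 14 of the 24 WT windows were still measured and 9 of these kept their call, and 3 of the 6 PML-RARa windows were measured and 1 kept it. Otherwise the cause was not tested. The genotype difference in the mean level of CD34- cells was -0.0884 points and became 0.306 when each library was summarised by the median of its windows' levels in place of the mean. Leaving out 1 library, the differences in mean level were -1.04 to -0.876 points (WT fractions), -0.722 to -0.518 (PML-RARa fractions), -0.512 to -0.319 (genotypes, CD34+) and -0.164 to 0.0192 (genotypes, CD34-). The replicate numbers of the groups differ, but consecutive numbers in the titles (1 and 2, 3 and 4, and so on) each hold a CD34+ and a CD34- library of 1 genotype. Such libraries also share the same title mark, #1 or #2. The labels do not say that they are pairs, and the main model has no term for them. Over the highly methylated windows, the deviations of such libraries from their group means correlated by -0.00177 to 0.0299 in WT and 0.000427 to 0.0262 in PML-RARa, and 2 of 5 CD34+ libraries of each genotype correlated best with their neighbour in number. The mean level was lower in the CD34- library of each such pair, with differences of -1.03 to -0.883 points in WT and -0.709 to -0.512 in PML-RARa. A replicate block of these pairs, added after seeing the data, called 22 windows in WT (15 of the 24), 11 in PML-RARa (2 of the 6) and 0 for the interaction, and the genotypes lie between pairs and could not be fitted. The spread between libraries exceeded the counting SD, which is a lower limit, in every class of depth.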
